A study of Mus musculus with 18 samples.

Results

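Interferon-stimulated genes were followed across mouse colorectal tissue, in 18 bulk RNA sequencing libraries that fall into 3 groups of 6. The genes were chosen by name from the protein-coding rows of the expression table: those starting with Oas, Ifi, Irf, Isg, Stat, Gbp, Mx (other than Mxd, Mxi and Mxra) or Trim30, and 15 listed by their full symbol. The rule gave 60 of the 10897 genes, and 14 of the 15 listed symbols were among them. Herc6, Mx1 and Mx2 were not analysed here, and Ifi30 and Gbp6 were left out because no protein-coding transcript type was given for them. The table keeps genes with an FPKM (fragments per kilobase of transcript, scaled by depth) of 1 or more in no fewer than 15 of the 18 libraries, and 56 of the 60 genes reached that level in every library. Genes switched on in a single group are therefore not covered. The 4 genes that define the set, Rsad2, Ifit1, Oasl2 and Ddx58, were all measured.

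The mice, male and 10 weeks old, were of strain C57BL/6J, and the labels put all libraries in 1 batch. Control is labelled a wild-type SPF (specific pathogen-free) group with cancer induced by azoxymethane (AOM), a carcinogen that produces colon tumours in rodents. Germ-free mice with the same carcinogen are labelled GF-AOM, and with added cigarette smoke exposure GF-AOMS. The treatment protocol reads differently: it calls Control a normal group, GF-AOM the AOM model and GF-AOMS the AOM model with smoke, and the growth protocol houses all mice under SPF conditions. Smoke separates GF-AOMS from GF-AOM whichever reading holds, whereas what separates Control from the other groups is germ-free status in one and AOM in the other. The labels give 6 mice a group without saying that each library is a separate mouse, so the spread behind each p-value is that of these libraries and may be technical.

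Type I interferons bind a receptor that activates STAT2, which joins IRF9 in a complex that switches on genes carrying an interferon-stimulated response element. Interferon gamma binds another receptor and drives a partly different set, rich in guanylate-binding and immunity-related GTPases. In the gut these genes are induced in epithelium and immune cells by microbial nucleic acids and by interferon lambda, and many of their products sense or restrict viruses and intracellular bacteria. In tissue RNA, fewer cells of a type and less RNA per cell cannot be told apart.

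The response element is commonly written GAAANNGAAA, and the gamma-activated site TTCNNNGAA. Both were searched on both strands in windows from 250 bases before to 50 bases after the start of each gene (RefSeq, build GRCm38.p6), for the 48 of 60 genes with a window. GAAANNGAAA stood in 24 of the 48 windows (50.0%), against 3.44% of all 32851 windows of this length. Among the 7667 tested genes with a window, taken at 1 window each, the share was 3.3%. GAAANNGAAA was found for 5 of 5 nucleic acid sensors, 10 of 15 antiviral effectors, 3 of 5 OAS genes and 3 of 4 GTPases. It was found for 1 of 2 genes of the ISG15 and ubiquitin system, 1 of 4 STAT genes and 1 of 7 IRF genes. Other interferon-inducible proteins had it in 0 of 2, and genes that share a name start only in 0 of 4. TTCNNNGAA stood in 12 of the 48 (25%), against 8.3% of all windows and 6.6% of the tested genes at 1 window each. Both motifs stood in 6 windows, and matches overlapped in 2 of them. The upstream sequences of 6 genes are shown. They are the first 6, in the order of the naming rules given below, with a match in the 250 bases before the start. Of the 6 genes only Rsad2 had an edgeR adjusted p under 0.05 in any comparison. Ddx58 holds a match in its window, but none wholly within those 250 bases. Each sequence shown is the 250 bases before the start, 5′ to 3′ on the gene's own strand, with matches to GAAANNGAAA on either strand in capitals. They lie at chr12:26456453-26456702 (minus strand, Rsad2), chr19:34640639-34640888 (plus, Ifit1), chr5:120812515-120812764 (minus, Oas1c), chr7:104465194-104465443 (minus, Trim30a), chr1:173741810-173742059 (minus, Ifi207) and chr3:142620413-142620662 (plus, Gbp2).
Rsad2: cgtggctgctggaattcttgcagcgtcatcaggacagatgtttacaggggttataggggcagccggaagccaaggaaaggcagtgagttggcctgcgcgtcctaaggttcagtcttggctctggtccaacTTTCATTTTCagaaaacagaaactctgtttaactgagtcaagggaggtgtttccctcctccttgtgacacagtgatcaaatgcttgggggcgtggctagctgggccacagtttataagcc
Ifit1: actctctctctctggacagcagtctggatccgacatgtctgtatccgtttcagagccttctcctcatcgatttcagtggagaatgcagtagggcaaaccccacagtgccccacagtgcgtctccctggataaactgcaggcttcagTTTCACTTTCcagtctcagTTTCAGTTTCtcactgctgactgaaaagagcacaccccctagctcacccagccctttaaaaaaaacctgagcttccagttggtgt
Oas1c: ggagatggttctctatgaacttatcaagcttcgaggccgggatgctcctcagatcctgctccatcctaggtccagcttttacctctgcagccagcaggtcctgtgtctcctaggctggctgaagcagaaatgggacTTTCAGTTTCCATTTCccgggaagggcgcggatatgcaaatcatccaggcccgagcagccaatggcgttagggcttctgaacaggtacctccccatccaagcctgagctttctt
Trim30a: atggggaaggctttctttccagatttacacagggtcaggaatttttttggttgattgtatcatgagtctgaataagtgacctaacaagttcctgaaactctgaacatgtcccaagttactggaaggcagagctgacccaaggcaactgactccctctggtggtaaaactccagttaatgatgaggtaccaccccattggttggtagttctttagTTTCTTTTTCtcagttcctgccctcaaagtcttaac
Ifi207: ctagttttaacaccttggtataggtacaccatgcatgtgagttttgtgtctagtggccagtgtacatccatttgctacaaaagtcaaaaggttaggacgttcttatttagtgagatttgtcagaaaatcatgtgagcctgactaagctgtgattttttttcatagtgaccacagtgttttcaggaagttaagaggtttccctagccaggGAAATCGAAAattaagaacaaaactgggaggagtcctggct
Gbp2: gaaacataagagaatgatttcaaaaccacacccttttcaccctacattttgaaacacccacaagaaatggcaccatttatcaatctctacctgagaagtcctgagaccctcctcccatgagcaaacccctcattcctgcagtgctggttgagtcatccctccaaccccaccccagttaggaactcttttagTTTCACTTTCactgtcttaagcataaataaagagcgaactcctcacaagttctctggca
Rsad2 holds 1 match, 110 bases before the start, and Ifit1 holds 2, at 94 and 75 bases. Oas1c has 2 overlapping matches, at 104 and 98 bases. The matches in Trim30a, Ifi207 and Gbp2 lie at 26, 31 and 49 bases. A match is only a run of letters and was not tested for binding. With GF-AOMS against Control, the 24 genes with the motif had a median log2 difference of -0.46 and the 24 without it -0.28. Their ranges overlapped, from -2.13 to 0.24 with the motif and from -1.48 to 0.50 without it, and the 12 genes with no window had a median of -0.50.

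Total counts per library ran from 48.95 M to 79.23 M, with M for mega. CPM stands for TMM-scaled counts per M, and log2 differences come from 1 edgeR quasi-likelihood fit of all 18 libraries, with a call where p, adjusted by Benjamini-Hochberg over the 10897 genes, was under 0.05. Libraries Control 3 to Control 6 stood apart from the rest by colon position: their Hoxa13, a distal colon gene, lay at 0 to 3.05 CPM, against 24.7 to 53.5 CPM in the other 14 libraries. Ribosomal protein genes took 4.76% to 24% of the counts. A colon position term, under which the comparison is with Control 1 and Control 2, and a term for the ribosomal protein share were therefore fitted too. Their values are printed where they end a call, turn a direction or move a stated difference from Control by more than 1.5 times. They are not given for the difference of Irf2 from Control, for the motif groups or for the cell markers and their lists.

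In GF-AOM against Control, interferon-stimulated genes were lower on balance and none was called. Their median log2 difference was -0.35 against -0.004 over all genes, and 48 of the 60 were lower (80.0%, against 50.5% of all genes). The call took in 0 of 60 genes (0.00918% of all genes were called, that is 1 gene), so no single gene is said to have changed here. At an unadjusted p under 0.05 there were 13 lower genes (21.7%, against 9.74% of all genes) and 1 higher gene, and DESeq2 called 2 genes, Parp14 and Rsad2 (3.33%). Of all genes it called 2.66% in either direction and 2.01% lower, so that share is near the background. No gene separated the 6 GF-AOM libraries from the 6 Control libraries (0.459% of all genes did so in the lower direction and 0.303% in the higher). The smallest p belonged to Parp14 and Ddx58 among lower genes and to Ifitm1, Irf5 and Oas1c among higher ones.

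Smoke was the labelled difference between GF-AOMS and GF-AOM, and 0 of the 60 genes were called (0% of all genes). None had an unadjusted p under 0.05 either, against 1.09% of all genes, and DESeq2 called 0 of the 60 (0.0276% of all genes). Of the 60, 42 lay lower in GF-AOMS (70.0%, against 46.4% of all genes) and 18 higher (against 53.6%), with a median log2 difference of -0.16 against 0.01 over all genes. That median ran from -0.30 without GF-AOMS 1 to -0.05 without GF-AOM 2. No gene separated these groups (0.00918% of all genes did so in the lower direction and 0.0551% in the higher). The pattern was thus a small lean in the same gene set, within the spread of the libraries for each gene.

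In GF-AOMS against Control, Rsad2 and Ddx58 fell, and most other interferon-stimulated genes leaned the same way. The 2 calls are 3.33% of the 60 genes, where 0.624% of all genes were called lower and 0.734% in either direction. None of the 60 was called higher (0.11% of all genes were). By sign, 50 of the 60 were lower (83.3%, against 49.0% of all genes), with a median log2 difference of -0.37 against 0.006. At an unadjusted p under 0.05 there were 21 lower genes (35.0%, against 9.25%) and 1 higher gene. DESeq2 called 9 of the 60, all lower (15%), where it called 3.44% of all genes, and 2.64% lower. In 6 genes every GF-AOMS library lay below every Control library (10.0%, against 0.541% of all genes): Rsad2, Ddx58, Oasl1, Oasl2, Ifit1 and Rtp4. No gene separated the groups the other way (0.257% of all genes). The comparisons with Control share their control libraries, so the lean in both is not counted as repeated evidence. With the colon position term the median was -0.40 with 45 of 60 lower, and with the ribosomal protein term -0.51 with 49 lower, but neither left a call.

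**Figure D1:**
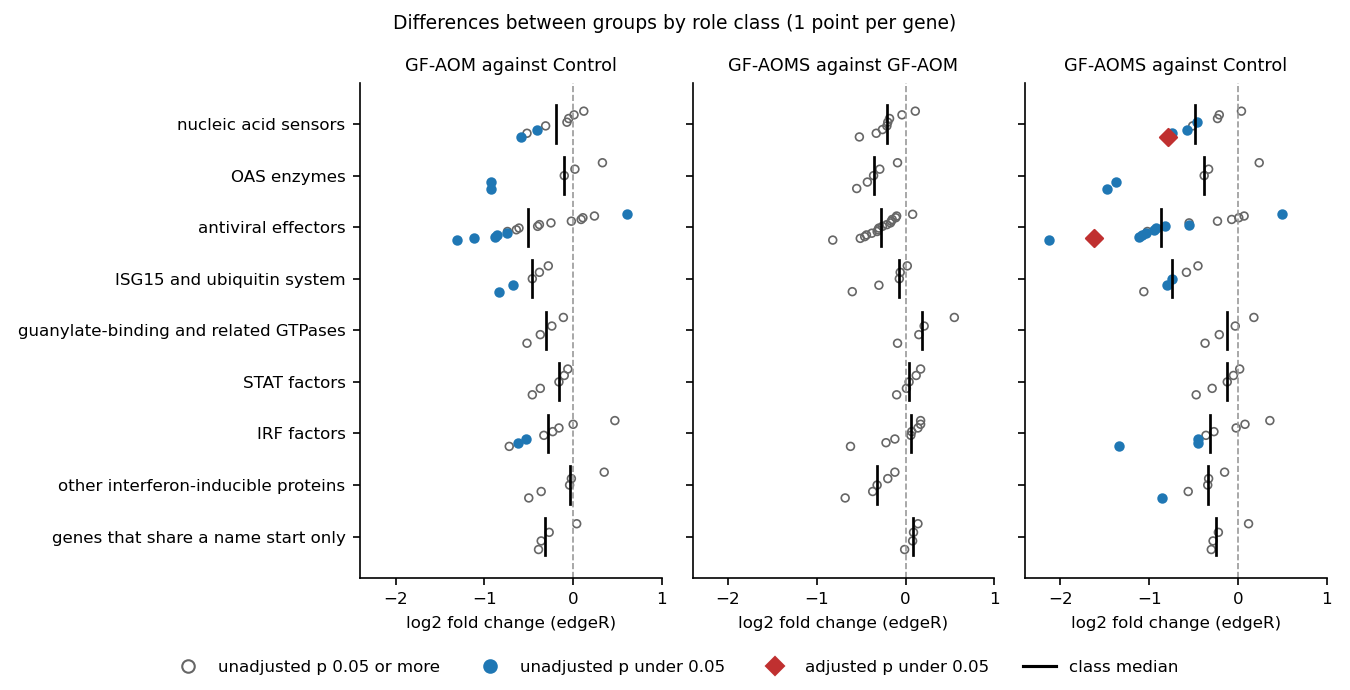
Log2 differences of the 60 genes (x axis, edgeR fit) by role class (y axis), with 1 panel for each of the 3 comparisons and 1 point per gene. The antiviral effectors spread furthest to the left, to -2.13 for Ifit1 in GF-AOMS against Control, while the STAT genes lie within -0.47 and 0.02 there.

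Nucleic acid sensors detect foreign or misplaced RNA and DNA and start interferon production. Of the 8 measured, 7 were lower in GF-AOMS than in Control, 1 of them called, with a median log2 difference of -0.48. Of all genes 49.0% were lower there and 0.624% were called lower. Ddx58 (ENSMUSG00000040296, chromosome 4, 40203773 to 40239825) encodes RIG-I, the sensor of short RNA with a 5′ triphosphate. Its CPM in the 6 Control libraries was 33.6, 32.2, 32.9, 32.1, 36.4 and 27.4. In GF-AOM it was 11.6, 32.5, 19.4, 26.1, 19.5 and 20.1, and in GF-AOMS 17.7, 18.6, 23.1, 15.3, 20.6 and 17.2. GF-AOM library 2 reached the Control range and the other GF-AOM libraries did not, while all GF-AOMS libraries lay below all Control libraries. Ddx58 was 1.73-fold lower in GF-AOMS than in Control (log2 -0.79, SE 0.18, edgeR adjusted p = 0.0495, 6 of 6 libraries below the Control mean).

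For GF-AOM against Control the Ddx58 difference was -0.59 (SE 0.18, edgeR adjusted p = 0.148), and for GF-AOMS against GF-AOM it was -0.20 (SE 0.18, adjusted p = 1). The call rested at the threshold: it was kept without Control 2, GF-AOM 1 or GF-AOM 2 and lost without each of the other 15 libraries, where the value stayed between -0.86 and -0.74. With the colon position term it was -0.81 (edgeR adjusted p = 1), and with the ribosomal protein term -0.60 (adjusted p = 0.128).

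The related helicases ran lower with more overlap. Ifih1, which encodes the long-RNA sensor MDA5, averaged 93.4 ± 13.1 CPM in Control, 75.3 ± 27.6 in GF-AOM and 62.8 ± 24.2 in GF-AOMS (SD, n = 6 each here and below). Dhx58, whose product LGP2 tunes RIG-I and MDA5, stood at 27.8 ± 6.0, 19.4 ± 10.3 and 16.7 ± 7.14 CPM. Eif2ak2 encodes PKR, the kinase that stops translation on double-stranded RNA, and averaged 45.6 ± 6.9, 34.3 ± 10.7 and 33.2 ± 8.02 CPM. Zbp1, a sensor of Z-form nucleic acid that can trigger cell death, did not follow them. Its means were 81.2 ± 12.5, 78.2 ± 39.8 and 69.2 ± 44.9 CPM, with a far wider spread in GF-AOM and GF-AOMS than in Control.

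The 3 measured genes of the p200 family, DNA-binding proteins encoded in a cluster on chromosome 1, were low and nearly level. Ifi204 averaged 8.12 ± 2.87, 8.85 ± 3.1 and 7.04 ± 2.52 CPM, and Ifi211 8.45 ± 2.27, 8.06 ± 2.55 and 8.68 ± 3.38. Ifi207 (ENSMUSG00000073490, chromosome 1, 173723427 to 173741747) had one of the 3 smallest p values among genes lower in GF-AOMS than in GF-AOM. Its means were 6.53 ± 2.64, 6.58 ± 2.2 and 4.6 ± 1.69 CPM. The log2 difference of GF-AOMS from GF-AOM was -0.52 (SE 0.29, edgeR adjusted p = 1), so it did not pass.

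OAS proteins make oligoadenylates that activate RNase L, and Oasl1 and Oasl2 encode OAS-like relatives with a ubiquitin-like end. These 5 genes split. Oasl2 (ENSMUSG00000029561, chromosome 5, 114896936 to 114912234) stood at 175, 125, 117, 198, 146 and 122 CPM in Control. It stood at 15.6, 138, 86.3, 117, 30.7 and 75 CPM in GF-AOM and at 62.5, 52.3, 86.8, 25.5, 44.8 and 43.9 CPM in GF-AOMS. GF-AOM ran from the lowest of the 18 libraries up to the Control range, and GF-AOMS lay wholly below Control. Oasl2 was 2.79-fold lower in GF-AOMS than in Control (log2 -1.48, SE 0.40), which missed the call in edgeR (adjusted p = 0.0937). Its differences were -0.93 for GF-AOM against Control (SE 0.39, adjusted p = 0.284) and -0.55 for GF-AOMS against GF-AOM (SE 0.39, adjusted p = 1).

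Oasl1 (chromosome 5, 114923240 to 114937915), next to Oasl2 on the chromosome and known to limit translation of Irf7, ran the same way. Its means were 54.2 ± 14.1 CPM in Control, 28.3 ± 17.6 in GF-AOM and 21.0 ± 5.43 in GF-AOMS. The highest GF-AOMS library, at 27.7 CPM, lay under the lowest Control library, at 38.3 CPM. The log2 difference of -1.37 (SE 0.34) for GF-AOMS against Control missed the call (edgeR adjusted p = 0.071). Without Control 2, Oasl1, Oasl2 and Ifit1 passed, with edgeR adjusted p of 0.0432, 0.0491 and 0.0389, and without GF-AOM 1 they passed at 0.0481, 0.0481 and 0.0373.

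The Oas1 genes stayed closer to level. Oas1a averaged 233 ± 76.9 CPM in Control, 218 ± 119 in GF-AOM and 179 ± 108 in GF-AOMS, and Oas1g 108 ± 45, 110 ± 66 and 85.8 ± 59.1. Oas1a and Oas1g are near-identical copies, so reads may be split between them and their separate levels are uncertain. Oas1c (ENSMUSG00000001166, chromosome 5, 120800194 to 120812514) was lowest in Control, at 7.97 ± 2.21 CPM, against 10.0 ± 2.69 in GF-AOM and 9.44 ± 3.53 in GF-AOMS. Its difference of 0.33 for GF-AOM against Control (SE 0.25, edgeR adjusted p = 0.46) did not pass, and it was 0.04 with the colon position term and 0.01 with the ribosomal protein term. Thus the OAS-like genes carried the lower values of this class, and 1 of the 5 genes, Oas1c, leaned higher in both comparisons with Control.

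Antiviral effectors act on viral replication, entry or release. They held the widest differences of the set. Rsad2 (ENSMUSG00000020641, chromosome 12, 26442746 to 26456452) encodes viperin, an enzyme that makes a chain-terminating nucleotide. In Control its CPM was 24.2, 22.2, 17.4, 21.1, 14.1 and 23.5. In GF-AOM it was 5.45, 17.3, 13.2, 8.65, 3.35 and 8.53, and in GF-AOMS 11.6, 9.53, 4.25, 5.16, 5.17 and 4.14. All GF-AOMS libraries lay below all Control libraries, and in GF-AOM only library 2 lay within the Control range. Control 1 and Control 2, which carry the distal marker as the GF libraries do, were above every GF library.

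Rsad2 was 3.08-fold lower in GF-AOMS than in Control (log2 -1.62, SE 0.35, edgeR adjusted p = 0.0408, 6 of 6 libraries below the Control mean). In GF-AOM against Control it was at -1.12 (SE 0.34, edgeR adjusted p = 0.155), with 6 of 6 libraries below the Control mean. In GF-AOMS against GF-AOM it was at -0.51 (SE 0.34, adjusted p = 1). The call in GF-AOMS was kept without Control 2 or without GF-AOM 1, 2, 4 or 5 and lost without each of the other 13 libraries, with values from -1.86 to -1.52 and adjusted p up to 0.105. With the colon position term the difference was -1.81 (edgeR adjusted p = 0.922) and with the ribosomal protein term -1.78 (adjusted p = 0.0814). The size was therefore as large with either term, and the call was not.

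Cmpk2, the neighbour of Rsad2 and a nucleotide kinase, averaged 39.2 ± 4.14 CPM in Control, 23.3 ± 9.26 in GF-AOM and 20.7 ± 7.8 in GF-AOMS. The lowest Control library, at 32.9 CPM, lay just under the highest GF-AOMS library, at 33.3 CPM. Rsad2 and Cmpk2 thus followed one order of group means.

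IFIT proteins bind viral RNA that lacks host cap marks. Ifit1 (ENSMUSG00000034459, chromosome 19, 34640871 to 34650009) ranged over 5.28 log2 units in the 18 libraries, the widest range of the 60 genes. Its CPM was 74.1, 59.8, 52.4, 114, 55.1 and 79.9 in Control. It was 2.91, 57.5, 38.0, 38.2, 8.19 and 30.4 in GF-AOM, and 33.4, 24.4, 14.6, 5.98, 10.3 and 11.0 in GF-AOMS. GF-AOM 1 had the lowest value and GF-AOM 2 reached the Control range, so GF-AOM held both the lowest library and 1 in the Control range. Ifit1 was 4.37-fold lower in GF-AOMS than in Control (log2 -2.13, SE 0.54), the largest difference among the 60 genes, and missed the call in edgeR (adjusted p = 0.0781). The difference was -1.31 for GF-AOM against Control (SE 0.53, adjusted p = 0.263) and -0.82 for GF-AOMS against GF-AOM (SE 0.52, adjusted p = 1).

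The other IFIT genes had the same order of means. Ifit2 averaged 38.2 ± 14, 20.8 ± 9.28 and 18.6 ± 10.5 CPM in Control, GF-AOM and GF-AOMS. Ifit3 averaged 30.9 ± 10.2, 18.5 ± 8.04 and 16 ± 10.3 CPM, and its close copy Ifit3b 11.3 ± 3.62, 6.2 ± 2.49 and 5.20 ± 3.19. Ifit1bl1, a relative of Ifit1 with a range of 4.07 log2 units, averaged 231 ± 103, 148 ± 95.6 and 114 ± 67 CPM. Counts of Ifit3 against Ifit3b and of Ifit1 against Ifit1bl1 may be split between copies and are uncertain one by one.

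**Figure D2:**
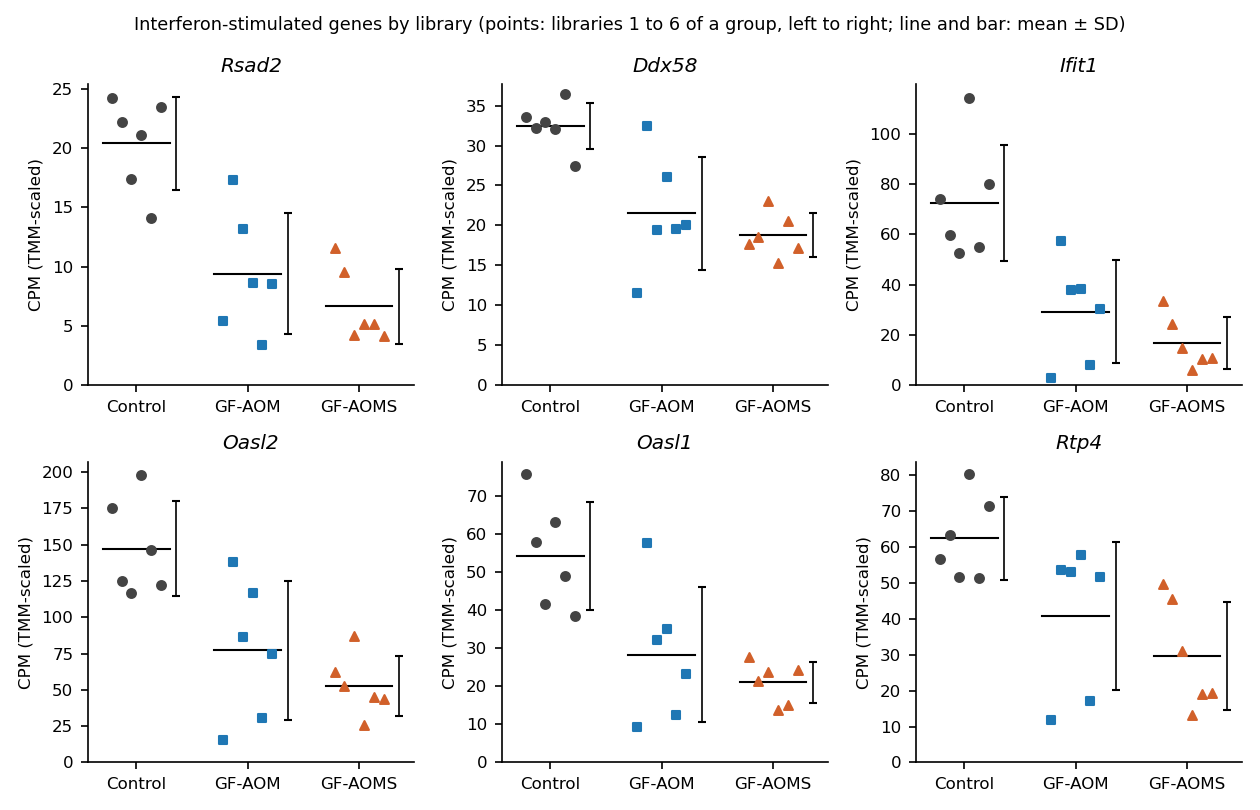
CPM (y axis, TMM-scaled) of 6 interferon-stimulated genes in the 6 libraries of each group (points, libraries 1 to 6 from left to right; line and bar, mean ± SD). The genes plotted are the 6 of 60 in which every GF-AOMS library lies below every Control library, so they were chosen for that separation. The GF-AOM points spread widely, from 2.91 to 57.5 CPM for Ifit1.

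IFITM proteins block fusion of viral envelopes and did not join the lean. Ifitm2 averaged 102 ± 6.88, 101 ± 16.5 and 107 ± 12.8 CPM and Ifitm3 87.7 ± 16.2, 94.5 ± 17.1 and 88.5 ± 18.3, which are differences smaller than their spreads. Ifitm1 (ENSMUSG00000025491, chromosome 7, 140967221 to 140969825) leaned the other way. It stood at 19.3, 18.6, 20.7, 9.79, 21.6 and 13.9 CPM in Control, at 31.4, 23.8, 25.8, 16.8, 29.5 and 31.8 CPM in GF-AOM and at 25, 37.6, 19.0, 24.1, 22.7 and 18.7 CPM in GF-AOMS. Of the 6 GF-AOM libraries, 5 lay above all Control libraries. The log2 difference was 0.61 for GF-AOM against Control (SE 0.21, edgeR adjusted p = 0.204) and 0.50 for GF-AOMS against Control (SE 0.21, adjusted p = 0.264), so neither passed. With the ribosomal protein term they were 0.37 and 0.27.

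Among the remaining effectors, Rtp4 (chromosome 16, 23520291 to 23614222), an interferon-induced chaperone of membrane receptors, averaged 62.5 ± 11.6, 40.8 ± 20.6 and 29.7 ± 15.1 CPM. Its highest GF-AOMS library, at 49.7 CPM, lay just under its lowest Control library, at 51.4 CPM. Samd9l, a restriction factor for poxviruses, averaged 126 ± 17.7, 106 ± 30.8 and 85.8 ± 20.2 CPM, and its GF-AOMS to GF-AOM difference of -0.30 (SE 0.19, edgeR adjusted p = 1) did not pass. Trim30a (ENSMUSG00000030921, chromosome 7, 104409025 to 104465193), a TRIM protein that restrains inflammatory signalling, averaged 29.6 ± 6.9, 22.8 ± 8.54 and 16.8 ± 4.56 CPM. It had the smallest p of the 60 genes for smoke, at -0.44 (SE 0.24, unadjusted p = 0.087, edgeR adjusted p = 1). Trim30d, a copy from the same cluster that may share reads with it, averaged 31.9 ± 5.14, 24.1 ± 10.0 and 21.8 ± 7.13 CPM. Bst2 (tetherin, which holds budding virus on the cell) and the exonuclease gene Isg20 were near level, at 82.5 ± 22.5, 87.5 ± 39.0 and 70.2 ± 35.1 CPM and at 29.8 ± 7.89, 35.3 ± 9.62 and 28.5 ± 9.7 CPM. By class, 13 of the 16 effectors were lower in GF-AOMS than in Control, with a median of -0.87, and 9 of those had an unadjusted p under 0.05. Of all genes 49.0% were lower there, and 9.25% were lower at that threshold.

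ISG15 is a ubiquitin-like protein joined to other proteins, and Usp18 removes it and restrains the interferon receptor. Isg15 (chromosome 4, 156199455 to 156200796) stood at 126, 167, 28.3, 98.8, 50.9 and 74.0 CPM in Control, at 6.25, 99.4, 132, 45.8, 19.9 and 93.1 CPM in GF-AOM and at 102, 80.3, 26.8, 11.6, 19.5 and 21.3 CPM in GF-AOMS. The groups overlapped widely, with a Control library at 28.3 CPM and a GF-AOM library at 132 CPM. Its log2 differences were -0.46 (SE 0.64) for GF-AOM against Control, -0.60 (SE 0.64) for GF-AOMS against GF-AOM and -1.06 (SE 0.65) for GF-AOMS against Control. None passed, with edgeR adjusted p of 0.69, 1 and 0.41. Against Control the GF-AOM value was -1.15 with the colon position term and -0.91 with the ribosomal protein term, and the GF-AOMS value was -1.75 and -1.66. Usp18 was similar, at 29.6 ± 9.91, 24.3 ± 15.9 and 19.8 ± 17.2 CPM.

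Parp14 (ENSMUSG00000034422, chromosome 16, 35832874 to 35871544), an ADP-ribosyltransferase, had the smallest p of the 60 genes in GF-AOM against Control. Its CPM was 62.8, 60.9, 103, 75.3, 121 and 76.9 in Control, 31.5, 60.5, 40.8, 63.5, 36 and 49.3 in GF-AOM and 48.2, 43.1, 47.4, 26.6, 78.1 and 43.0 in GF-AOMS. The highest GF-AOM library overlapped the lower Control libraries, and its difference was -0.83 (SE 0.24, edgeR adjusted p = 0.134). It was -0.40 with the colon position term and -0.54 with the ribosomal protein term. Parp14 was lower in Control 1 and Control 2, at 62.8 and 60.9 CPM, than in the other Control libraries. Parp9 and Dtx3l, which form a complex of an ADP-ribosyltransferase and a ubiquitin ligase, averaged 87.0 ± 7.37, 66.9 ± 20.0 and 63.7 ± 22.4 CPM and 58.3 ± 16.3, 36.4 ± 9.73 and 34.8 ± 15.3 CPM. Their genes overlap on opposite strands, and the strand setting of the counting is not given in the sources used here, so their reads may be mixed. All 5 genes of this class were lower in both comparisons with Control.

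Guanylate-binding proteins and related GTPases attack the vacuoles of intracellular microbes and are classic targets of interferon gamma. The 4 measured genes had a median log2 difference of 0.18 for GF-AOMS against GF-AOM, where the median of all 60 was -0.16. Without GF-AOMS 5 it was -0.21, with 4 of 4 lower. Gbp2 (ENSMUSG00000028270, chromosome 3, 142620602 to 142638008) stood at 51.4, 44.1, 37.4, 26.6, 106 and 33.9 CPM in Control, at 28.3, 35.1, 35.4, 37.1, 25.1 and 70.9 CPM in GF-AOM and at 45.1, 65.3, 23.3, 24, 162 and 20.6 CPM in GF-AOMS. A single library, GF-AOMS 5, made the GF-AOMS mean of 56.7 ± 54.2 CPM the highest. The GF-AOMS to GF-AOM difference was 0.55 (SE 0.47, edgeR adjusted p = 1) and turned to -0.12 without that library.

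Gbp3, Gbp7 and Ifi47 were likewise highest in Control 5 and GF-AOMS 5. Gbp3 reached 43.5 and 47.5 CPM there, Gbp7 36.8 and 47.1 CPM, and Ifi47, a GTPase of the immunity-related family, 86.7 and 89.5 CPM. GF-AOMS 4 was the lowest library for all of Gbp3, Gbp7 and Ifi47, at 12.6, 10.4 and 22.9 CPM. Members of the Gbp family are similar in sequence, so single values may hold reads of a relative.

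STAT genes encode the transcription factors that carry cytokine signals, and as a class they stayed near level. Their medians were -0.16, 0.04 and -0.12 in GF-AOM against Control, GF-AOMS against GF-AOM and GF-AOMS against Control. With the ribosomal protein term the median turned to 0.03 in both comparisons with Control. Stat2, the member that joins IRF9, averaged 63.8 ± 8.6, 49.4 ± 16.3 and 46.0 ± 21.0 CPM. Stat3, Stat5b and Stat6, which serve other cytokines, stayed within 1.03 log2 units over all 18 libraries. Stat6, for example, averaged 74.2 ± 8.88, 66.5 ± 7.53 and 68.4 ± 11.0 CPM.

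IRF genes encode regulators of interferon and its targets, and within them Irf7 stood apart. Irf7 (chromosome 7, 141262706 to 141266481), the factor that amplifies type I interferon production and is itself induced by it, stood at 343, 410, 345, 567, 269 and 477 CPM in Control. In GF-AOM it stood at 50.0, 287, 361, 348, 91.9 and 332 CPM and in GF-AOMS at 278, 228, 187, 96.5, 65.5 and 97.4 CPM. Of the GF-AOMS libraries, 5 lay below the lowest Control library. GF-AOMS was 2.53-fold lower than Control (log2 -1.34, SE 0.44, edgeR adjusted p = 0.163), which did not pass. The differences of -0.72 (SE 0.43) for GF-AOM against Control and -0.62 (SE 0.43) for GF-AOMS against GF-AOM did not pass either, with edgeR adjusted p of 0.383 and 1.

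Irf9, the DNA-binding partner of STAT2, averaged 76.3 ± 13.6, 65.1 ± 17.3 and 55.8 ± 12.8 CPM. Irf3, the constitutive factor that starts interferon transcription, was level at 36 ± 5.41, 36 ± 5.3 and 37.9 ± 4.72 CPM, and Irf8, a myeloid factor, at 109 ± 26.1, 97.1 ± 16.7 and 107 ± 30. Irf1 averaged 170 ± 55.6, 135 ± 36.8 and 140 ± 69.9 CPM and was highest in GF-AOMS 5 (275 CPM) and Control 5 (252 CPM), the libraries in which the GTPase genes were highest. Levels of the signalling factors themselves thus differed less than those of Irf7.

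Irf2, a repressor of interferon responses, averaged 43.5 ± 7.26, 30.1 ± 6.18 and 33.9 ± 11.3 CPM. Its log2 difference was -0.53 for GF-AOM against Control (SE 0.21, edgeR adjusted p = 0.255) and 0.17 for GF-AOMS against GF-AOM (SE 0.21, adjusted p = 1; 0.07 with the ribosomal protein term), so neither passed. The Irf2 difference of -0.53 is not given with either term here. Irf2 stood at 39.9 and 35.7 CPM in Control 1 and Control 2 and at 36.6 to 54.1 CPM in the other Control libraries. In GF-AOM against Control the median of the 8 IRF genes was -0.28. It was -0.07 with the colon position term and -0.16 with the ribosomal protein term. Irf5, a factor of macrophages and B cells, averaged 11.9 ± 5.33, 16.5 ± 4.26 and 15.2 ± 4.38 CPM. Its differences from Control of 0.47 and 0.36 (SE 0.25 each, edgeR adjusted p = 0.345 and 0.472) turned to -0.04 and -0.16 with the colon position term and were 0.13 and 0.06 with the ribosomal protein term.

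Other interferon-inducible proteins were lower in GF-AOMS than in Control in 5 of 5 genes, with a median of -0.34 and no call. That median ran from -0.85 without GF-AOMS 2 to -0.16 without GF-AOMS 4, and was -0.62 and -0.98 with the colon position and ribosomal protein terms. Ifi27l2b (chromosome 12, 103450898 to 103457223), a small hydrophobic membrane protein, averaged 207 ± 52, 147 ± 69.2 and 114 ± 44.7 CPM. Ifi27l2a, a gene of the same cluster and family, ranged over 3.4 log2 units with means of 57.8 ± 31.6, 73.7 ± 58.7 and 45.9 ± 43.7 CPM. Reads may be split between these close relatives and Ifi27, which averaged 69.1 ± 18.2, 53.9 ± 19.6 and 47.1 ± 25.8 CPM. Ifi35 and Xaf1, a partner of Nmi and a pro-apoptotic factor, were near level at 49.8 ± 11.3, 48.5 ± 16.9 and 44.8 ± 20.6 CPM and 31.0 ± 8.38, 30.5 ± 18.1 and 24.5 ± 19.5 CPM.

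The name rule also took in Irf2bp1, Irf2bp2, Irf2bpl and Isg20l2, which share a name start but are not known as interferon targets. Their median differences were -0.32, 0.09 and -0.25 in the order used above, with no call. In GF-AOM against Control the 4 thus lay close to the -0.35 of the whole set. With the colon position term they were at -0.01 and 0.06 against Control, and with the ribosomal protein term at 0.02 and 0.01. In GF-AOMS against Control the 16 effectors, at -0.87, lay further down than these 4, and that gap was not tested.

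**Figure D3:**
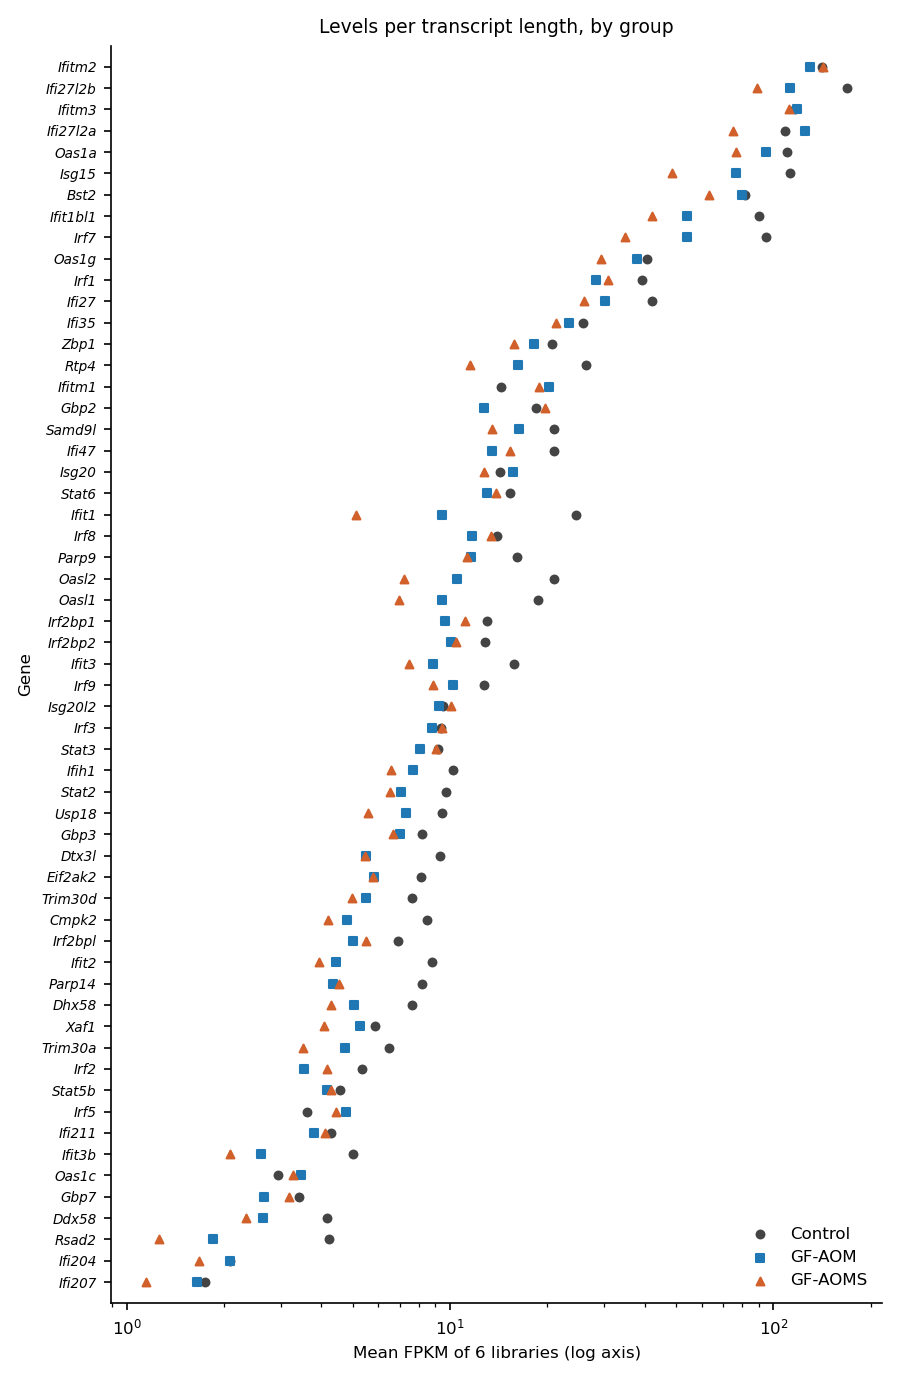
Mean FPKM of 6 libraries (x axis, log scale) for 58 genes (y axis), 1 symbol per group. Ifitm2 is highest at a mean of 138 over the 18 libraries and Ifi207 lowest at 1.51, and the group symbols of Ifit1, Rsad2 and Irf7 lie further apart than those of Ifitm2, Ifitm3 or Stat5b.

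Levels between genes are comparable only per transcript length. By mean FPKM over the 18 libraries, the set was led by Ifitm2 (138), Ifi27l2b (124), Ifitm3 (116), Ifi27l2a (103) and Oas1a (93.8), followed by Isg15 (79.5), Bst2 (74.9) and Irf7 (61.4). At the low end stood Rsad2 (2.44), Ifi204 (1.95) and Ifi207 (1.51). The 2 called genes were among the less abundant ones, Rsad2 at 2.44 and Ddx58 at 3.04. A filter at an FPKM of 5 in 6 libraries keeps 50 of the 60 genes and removes both, so 0 calls were left under it.

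**Figure D4:**
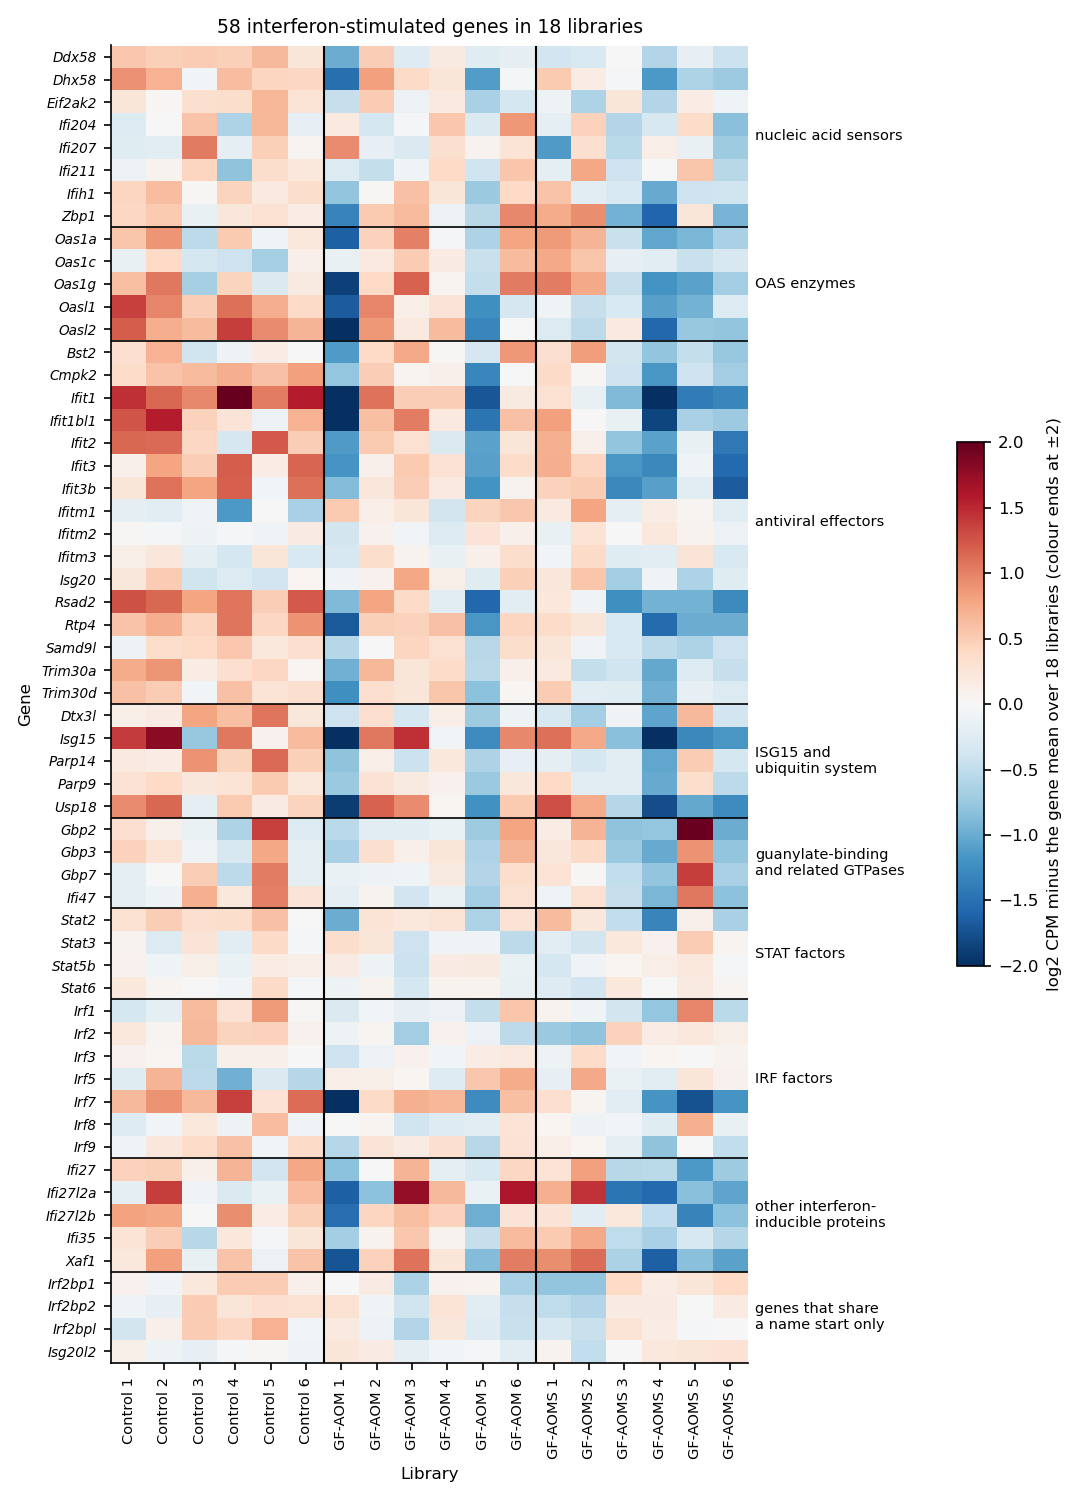
Deviation of log2 CPM from the mean of the 18 libraries (colour, ends of the scale at ±2) for 58 genes (rows, by role class) in each library (columns, by group). GF-AOM 1, GF-AOM 5 and GF-AOMS 4 are low across most classes, with median deviations of -0.67, -0.55 and -0.80, and Control 5 and GF-AOMS 5 are high for the GTPase rows.

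Libraries of GF-AOM and of GF-AOMS differed among themselves by more than the group means did. The median deviation of the 60 genes from their means over 18 libraries ran from 0.22 to 0.44 in Control (SD 0.09). It ran from -0.67 to 0.28 in GF-AOM (SD 0.42) and from -0.80 to 0.20 in GF-AOMS (SD 0.38), so the Control libraries were tightly grouped and the others were not. GF-AOM 1 was the lowest of the 18 libraries for 19 of the 60 genes and GF-AOMS 4 for 13. GF-AOM 1, GF-AOM 5, GF-AOMS 4 and GF-AOMS 6 lay below the mean for 50, 51, 48 and 50 of the 60 genes. GF-AOM 2, GF-AOM 3, GF-AOM 4, GF-AOM 6 and GF-AOMS 1 sat near Control, at 0.21, 0.17, 0.16, 0.28 and 0.20. The low GF-AOM libraries were thus GF-AOM 1 and GF-AOM 5, at -0.67 and -0.55, and the median over the GF-AOM libraries was 0.16. Within a group the median SD of log2 CPM was 0.37 for these genes against 0.29 for all genes in Control, 0.49 against 0.28 in GF-AOM and 0.56 against 0.32 in GF-AOMS.

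Not all classes followed the same libraries. In Control 5 the GTPase class lay 1.02 above its mean and the OAS class at -0.09, and in GF-AOMS 5 they lay at 1.22 and -0.92. GF-AOM 6 had 0.52 and 0.63, and GF-AOM 1 had -0.36 and -1.67. The same Control 5 and GF-AOMS 5 libraries led for 6 immunity-related GTPases outside the set, at 1.55 and 2.29, and for 3 interferon-inducible chemokines, at 1.76 and 2.48. Genes classed here as OAS or GTPase thus ranked the libraries differently.

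**Figure D5:**
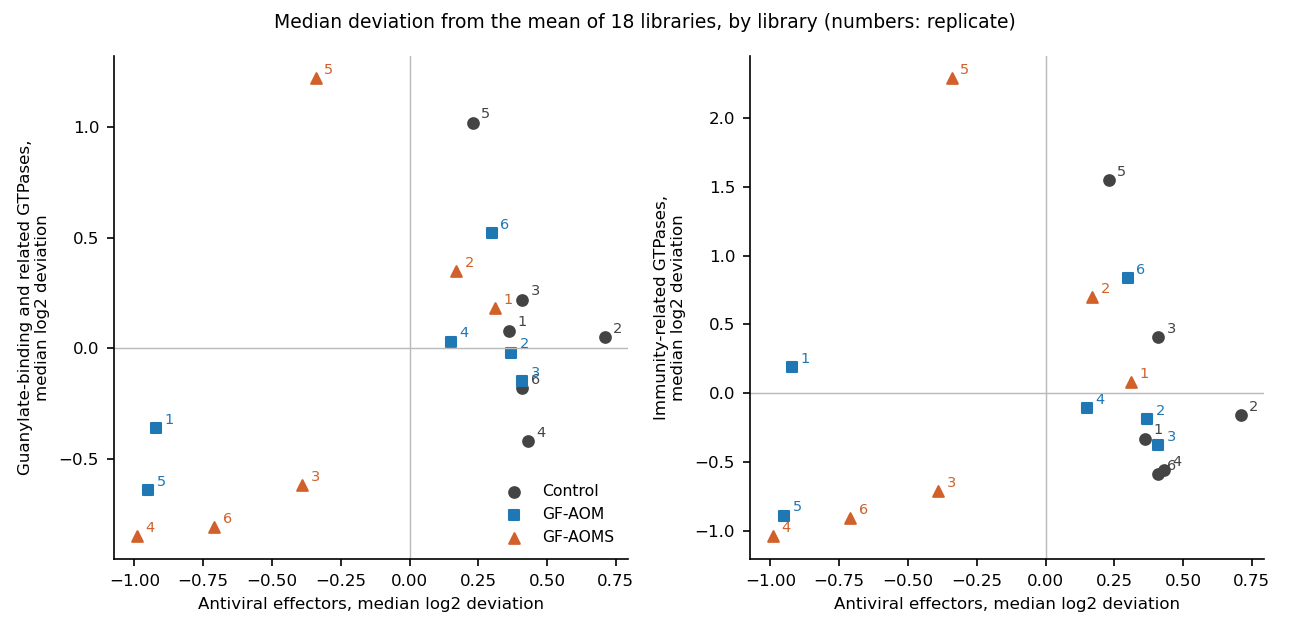
Median log2 deviation of the antiviral effectors (x axis) against that of another class (y axis) in each of the 18 libraries (points, numbered by replicate, coloured by group). The GTPase points of Control 5 and GF-AOMS 5, at 1.02 and 1.22, stand above the rest, while along the x axis they lie at 0.23 and -0.34.

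Other genes of the pathway were listed by role. Of 9 interferon genes listed, 0 were measured, so the inducing cytokines themselves were not analysed here. Of 9 genes for interferon receptors and their kinases, 8 were measured, 7 of them lower in GF-AOMS than in Control and none called, within -0.28 and 0.12. Ifnar2, a chain of the type I receptor, averaged 19.2 ± 2.68, 22.6 ± 3.46 and 17.7 ± 3.18 CPM, and its difference of -0.35 for GF-AOMS against GF-AOM (SE 0.14) did not pass (edgeR adjusted p = 1). Receptor and kinase levels thus differed by less than those of the antiviral effectors.

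Of 12 sensing and adaptor genes listed, 8 were measured and none was called. Trim25, the ubiquitin ligase that activates RIG-I, averaged 156 ± 17.2 CPM in Control, 97.7 ± 25.8 in GF-AOM and 96.0 ± 23.4 in GF-AOMS. No library of the other groups reached the lowest Control library, at 137 CPM. Of all genes, 0.459% lay wholly below Control in GF-AOM and 0.541% in GF-AOMS. Its differences from Control of -0.68 and -0.70 (SE 0.18 each) missed the call, with edgeR adjusted p of 0.104 and 0.079, whereas DESeq2 called both, with adjusted p of 0.0227 and 0.0154. GF-AOMS differed from GF-AOM by -0.03 (SE 0.18, edgeR adjusted p = 1). Trim25 and Ddx58 act in 1 pathway, and their differences in GF-AOMS against Control were close, at -0.70 and -0.79 (SE 0.18 each). Their edgeR adjusted p of 0.079 and 0.0495 lay on either side of the threshold, so only Ddx58 was called.

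Among 7 negative regulators, all measured and none called, Adar had the smallest p. It edits double-stranded RNA so that MDA5 ignores it, and averaged 78.3 ± 12.4, 59.3 ± 18.3 and 53.0 ± 10.9 CPM. The partners of ISG15 conjugation were measured in full, 2 of 2, and Ube2l6 averaged 47.8 ± 5.6, 39.8 ± 16.2 and 34.6 ± 14.5 CPM. All 6 immunity-related GTPases were higher in GF-AOMS than in GF-AOM, with a median of 0.65 and no call. GF-AOMS 5 was the highest library for all 6, for example at 165 CPM for Tgtp1, where the other GF-AOMS libraries held 11.5 to 47.1 CPM. Without GF-AOMS 5 all 6 were lower in GF-AOMS than in GF-AOM, with a median of -0.18. Of 9 antigen processing genes 8 were higher in that comparison, with a median of 0.15 and no call, and the median was -0.04 without GF-AOMS 2 and 0.03 without GF-AOMS 5. Tap2, a subunit of the peptide transporter, averaged 48.7 ± 10.5, 33.8 ± 4.36 and 37.8 ± 11.0 CPM and missed the call in GF-AOM against Control (log2 -0.53, SE 0.17, edgeR adjusted p = 0.192). It was -0.35 with the ribosomal protein term. Cxcl10, a chemokine induced by interferon, was at 51.7 CPM in GF-AOMS 5 and at 2.65 to 22.7 CPM in the other libraries.

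Markers of other cells moved with the groups too. Summed CPM of 11 colon epithelium markers ran from 15900 to 21000 in Control, 12300 to 17300 in GF-AOM and 13900 to 15800 in GF-AOMS. By this sum every GF-AOMS library lay below every Control library, by a narrow margin. By median log2 deviation of the 11 markers the groups overlapped. It ran from -0.01 to 0.60 in Control, -0.36 to 0.06 in GF-AOM and -0.47 to 0.17 in GF-AOMS. In GF-AOMS against Control 8 of the 11 were lower, 5 of them with an unadjusted p under 0.05, with a median log2 difference of -0.39. Of all genes 49.0% were lower in GF-AOMS against Control, and 9.25% were lower at that threshold. In that comparison 5 of 5 fibroblast markers were lower with a median of -0.44, and 5 of 6 endothelium markers with a median of -0.47. Their sums overlapped, at 606 to 1600, 700 to 1070 and 585 to 1140 CPM for fibroblasts and 128 to 193, 97.3 to 207 and 76.1 to 144 CPM for endothelium. In contrast, 6 of 6 B and plasma cell markers were higher in GF-AOMS than in Control (median 0.56), as were 6 of 7 smooth muscle markers (median 0.83) and 5 of 7 T cell markers (median 0.33). The sums of these lists overlapped between the groups and did not show a common rise. Median sums in GF-AOMS and Control were 4840 and 6020 CPM for B and plasma cells, 3560 and 3440 for smooth muscle and 53.0 and 50.3 for T cells. The smooth muscle sum was highest in GF-AOMS 1 and GF-AOMS 2, at 7370 and 12600 CPM. By median log2 deviation, B and plasma cell markers lay at -0.18 and 0.69 in Control 1 and Control 2. They lay at -2.26 to -0.78 in Control 3 to Control 6 and at -0.42 to 1.36 in GF-AOMS. The medians of the marker lists with the colon position term are not given here.

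Macrophage markers took no single direction. Of 11 listed, 10 were measured, at 500 to 1770 CPM in Control, 830 to 2360 in GF-AOM and 846 to 2600 in GF-AOMS. They were higher in GF-AOM than in Control in 10 of 10 (median 0.48) and lower in GF-AOMS than in GF-AOM in 8 of 10 (median -0.34). In GF-AOMS against Control 4 were lower and 6 higher (median 0.20).

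Plasmacytoid dendritic cells are strong makers of type I interferon, and 3 of their 6 listed markers were measured, of which Bst2 is itself in the set. Their sum ran from 837 to 1410 CPM in Control, 511 to 823 in GF-AOM and 546 to 728 in GF-AOMS, with no overlap with Control. Most of it was Klk1, named after its values were seen, at 995 ± 247, 586 ± 128 and 553 ± 102 CPM, so the sum is not read as a level of these cells. By median log2 deviation of the 3 markers the groups overlapped. It ran from -0.40 to 0.70 in Control, -1.13 to 0.76 in GF-AOM and -0.26 to 0.83 in GF-AOMS. Klk1 was called lower in GF-AOMS than in Control (log2 -0.85, SE 0.19, edgeR adjusted p = 0.0495), whereas Bst2 and Ly6d were at -0.23 and 0.16 there and were not called. The Klk1 call lay at the threshold and was lost with the colon position term and with the ribosomal protein term. Of 6 granulocyte markers 0 were measured. The 3 proximal colon markers summed to 892 to 22600 CPM in Control, 343 to 1150 in GF-AOM and 235 to 887 in GF-AOMS, and of the distal markers 1 stood at 0 in a Control library. The part that these markers have in the differences was not tested, beyond the colon position term given above.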

How the data were processed

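Total RNA from mouse colorectal tissue was depleted of ribosomal RNA and sequenced as strand-specific libraries, per the labels' protocols. The table of gene counts and the matching FPKM values were made and deposited by the authors, with whole-number counts and FPKM named per the file headers. The submitters' processing notes name featureCounts, DESeq2 and build GRCm39. No aligner, version or strand setting is named there (not given in the sources used here). Positions printed are those of the table: for 59 of the 60 genes both ends lie within 100 bases of GENCODE M21, which is on GRCm38.

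Counts of all 10897 genes in 18 libraries (48.95 to 79.23 M counts each) were fitted with edgeR 4.0.16 in R 4.3.3: TMM scaling, quasi-likelihood F-test, group as the only term, 15 residual degrees of freedom. Tests were two-sided, and a gene was called where its p, adjusted by Benjamini-Hochberg over the whole table, was under 0.05. Log2 CPM used a prior count of 2. No pair of libraries held identical values. On simulated counts for GF-AOM against Control over 10897 genes, the script recovered 22% of 1.5-fold, 76% of 2-fold, 92% of 3-fold and 100% of 4-fold changes, with 6 false calls. The changed genes were drawn at random from the whole table.

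The members, lists and comparisons were chosen with earlier results of these data known. Differences are given for the 4 defining genes, for called genes, for the 3 members with the smallest p per direction and comparison, and for Isg15 and Irf7. Per-library ranges are given for the 6 genes with the widest range and levels for the 2 most abundant genes of each class. The gene with the smallest p of each list of other pathway genes is named. Of the 60 members, 2 enter counts and medians and are not reported singly here. Members outside these rules are given by level alone, and Hoxa13 and Klk1 were named after their values were seen.

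Alternatives were DESeq2 1.42.0, RLE size factors, limma 3.58.1 on log2(FPKM + 1) and log2(FPKM + 0.1), an FPKM filter of 5 in 6 libraries, the replicate number as a block, only the groups compared, a colon position term (Hoxa13 under 10 CPM), and each of the 18 libraries left out. A term for the ribosomal protein share was chosen after seeing the data.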

Additional observations from a re-analysis of the deposited data

Results flagged for a closer look

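Among 99 groups of 6 libraries tested for a library far from the others, 1 (1.01%) held one, where chance gives about 1 in 20. Isg20l2 stood at 22.3 CPM in GF-AOMS 2, with the next GF-AOMS library at 31.5 CPM, and on the log2 CPM scale, on which libraries were tested, the gap was 0.638 of the group's range. GF-AOMS 2 had the largest share of counts from ribosomal protein genes, 24%. Whether that share bears on the low value was not tested.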

How the results depend on the processing

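The median difference of the 60 genes stayed negative in all 3 comparisons under every alternative run. It ranged from -0.47 to -0.29 in GF-AOM against Control, from -0.17 to -0.11 in GF-AOMS against GF-AOM and from -0.55 to -0.36 in GF-AOMS against Control. Leaving out 1 library gave -0.37 to -0.22, -0.30 to -0.05 and -0.50 to -0.33. Calls did not hold as well, and the causes were not tested.

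In GF-AOM against Control, edgeR called 1 gene of the table. DESeq2 called 284 genes, 2 of them interferon-stimulated, whereas limma on log2(FPKM + 1), limma on log2(FPKM + 0.1), the ribosomal protein term and the fit of only the groups compared each called 0. Leaving out 1 library gave 0 to 356 genes (356 without Control 2) and 0 of the 60. In GF-AOMS against GF-AOM, DESeq2 called 3 genes and the ribosomal protein term 1, against 0 in edgeR, and leaving out 1 library gave 0.

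In GF-AOMS against Control, edgeR called 80 genes. DESeq2 called 375, limma 17 with a pseudocount of 1 and 16 with 0.1, and the colon position term, the ribosomal protein term and the fit of only the groups compared each 0. Of the 60 genes, 2 were called by edgeR, 9 by DESeq2, 1 each with RLE size factors and with either limma fit, and 0 with the FPKM filter of 5, the colon position term, the ribosomal protein term or only the groups compared. Leaving out 1 library gave 0 to 493 genes and 0 to 6 of the 60 (6 without Control 2 and 5 without GF-AOM 1).

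With the replicate number as a block, 2 genes were called in GF-AOM against Control, 0 in GF-AOMS against GF-AOM and 33 in GF-AOMS against Control, with 1 of the 60 (Rsad2), while Ddx58 had an adjusted p of 0.0941. The labels do not say that a number marks a shared animal, litter or day, so the samples share only a number. Correlations of the deviations of same-numbered libraries ran from -0.619 to 0.517. Those over 0.1 were 2 of 6 for GF-AOM and Control, 1 of 6 for GF-AOMS and GF-AOM and 4 of 6 for GF-AOMS and Control, where 3 of 6 libraries correlated best with their own number.

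Among single genes, Irf5 turned to -0.04 and -0.16 against Control with the colon position term, and Gbp2 in GF-AOMS against GF-AOM ran from -0.12 (without GF-AOMS 5) to 0.82 when 1 library was left out. Trim25 in GF-AOMS against GF-AOM turned from -0.03 to 0.01 in both limma fits and ran from -0.12 to 0.07 when 1 library was left out. How depth limits the calls was not tested. On simulated counts for GF-AOM against Control 76% of 2-fold and 22% of 1.5-fold changes were recovered. Those changes were set in genes drawn at random from the whole table. The 60 genes spread more within groups, with a median SD of log2 CPM of 0.49 against 0.28 for all genes in GF-AOM. Recovery among the 60 genes was not tested.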
